A study of Mus musculus with 9 samples.

Results

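The cytosolic ribosomal protein genes encode the proteins of the large and the small subunit of the ribosome that translates nuclear mRNAs. They were taken as the array rows with a single gene symbol of the form Rpl or Rps plus a number, together with Rpsa, Rplp0, Rplp1 and Rplp2, without pseudogene symbols ending in -ps and without the Rps6k kinases. Each gene was represented by its probe set with the highest mean over the 9 arrays. This gave 67 of 22180 genes, 42 of the large and 25 of the small subunit. Rps27a, Rpl10 and Rpl12 had no row with a single symbol and were not analysed here.

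Affymetrix whole-transcript arrays were hybridised with liver RNA from 3 mice per group, each mouse on its own array. The double KO mice had liver-specific deletions of SMRT and of NCoR, the SMRT KO mice one of SMRT, and the controls carried floxed alleles of both genes (SMRT and NCoR fl/fl) without deletion. SMRT and NCoR are corepressors that nuclear receptors, such as the thyroid hormone receptors, recruit to keep target genes low. All 9 mice were euthyroid females aged 7 to 9 weeks, of a 129SV/B6 mixed background and on standard chow, and the starting amount was 200 ng of total RNA, which was amplified before labelling. The labels name neither the Cre driver of the deletions nor the NCoR allele of the SMRT KO mice, and the genotypes were not checked here. Nothing in the labels gives a batch. The liver label was checked against hepatocyte markers, whose median log2 value per array was 12.8 to 13.1, against 6.36 to 6.40 for all genes.

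Ribosomal proteins are made in near equal amounts and assembled with ribosomal RNA in the nucleolus. Their mRNAs typically begin with a pyrimidine tract, the 5′ terminal oligopyrimidine motif, through which mTOR and the protein Larp1 control their translation together. Transcription of the genes is supported by Myc and by ETS-type factors, and ribosome production in the liver follows feeding and growth. Many of these genes have processed pseudogenes with a near-identical sequence, and whether a probe set also read such copies was not tested.

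RefSeq entries of assembly GRCm38.p6 held the start region of 52 of the 67 genes, each of 250 bases before to 50 bases after the start. The sequences below run from 20 bases before to 10 bases after the start and are shown because they hold, or in the last 2 lack, motifs known from such genes, which the selection did not use. Capitals mark a pyrimidine-rich run (CTTTCC or CTCTTT) or an ETS-type motif (CCGGAAG, or CTTCCGG on the other strand). Rps6 and Rpl28 have the run at the start itself, Rpl35 across the start and Rpl4 before it, Rpl38 both motifs and Rps7 the ETS-type motif.
Rps6 (chr4:86857358-86857387, minus strand): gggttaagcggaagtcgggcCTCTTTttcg
Rpl28 (chr7:4792945-4792974, plus strand): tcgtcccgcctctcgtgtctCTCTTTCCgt
Rpl35 (chr2:39005122-39005151, minus strand): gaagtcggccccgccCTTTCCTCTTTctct
Rpl4 (chr9:64173367-64173396, plus strand): agtCTTTCCttttcctgtgggagcagccgg
Rpl38 (chr11:114668560-114668589, plus strand): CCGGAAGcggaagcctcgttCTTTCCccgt
Rps7 (chr12:28635944-28635973, minus strand): gaagagCTTCCGGtttccacccacctactt
Rplp0 (chr5:115559447-115559476, plus strand): acgtcgtcttcgggtttcgaggaccgcctg
Rpl10l (chr12:66284392-66284421, minus strand): agaaatttggcctccattttgcggctggcg

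Rplp0 and Rpl10l are shown as windows that hold neither motif. On the sense strand of this 30-base window, CTTTCC or CTCTTT was present in 11 of 52 ribosomal protein genes (21.2%) and in 2.99% of the 27025 genes with an entry. Over both strands of the whole 300 bases, CCGGAAG was present in 23 of the 52 genes (44.2%) and in 9.93% of all genes. Most members with an entry thus lacked each motif in its window. CTTTCC over both strands was present in 24 (46.2%) against 29.3% of all genes, and AAGATGGC, a YY1-type motif, in 3 (5.77%) against 3.19%. A match describes the letters only and is no evidence of a bound factor.

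In neither knockout did a single ribosomal protein gene pass the test, but most of the set had small positive log2 fold changes against control. The median log2 fold change was 0.083 in double KO against control livers, with 55 of 67 genes above 0, and 0.104 in SMRT KO against control livers, with 56 above 0. Over all 22180 genes the medians were 0.004 and 0.001, with 51.3% and 50.4% of genes above 0. In double KO against SMRT KO livers the ribosomal protein median was -0.030, with 26 of 67 genes above 0. As folds, the medians were 1.06, 1.07 and 0.980. Both knockouts were set against the same 3 control mice, so the first and second of these comparisons share the control values.

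By limma with Benjamini-Hochberg adjustment over all genes, 0 of 67 genes were below an adjusted p of 0.05 in each of the 3 comparisons. Of all genes, 0.843% were called in double KO against control livers (0.523% higher and 0.32% lower). For SMRT KO against control this share was 0.00451%, all of it higher. Between double KO and SMRT KO livers it was 1.19% (0.748% higher and 0.437% lower in double KO). At an unadjusted p below 0.05, the double KO against control comparison held 4 genes with higher and 1 gene with lower values, against 5.34% and 5.43% of all genes. The SMRT KO against control comparison held 11 genes, all with higher values (16.4% of the set), against 2.66% of all genes with higher and 3.34% with lower values. The double KO against SMRT KO comparison held 2 genes, both with lower values, against 4.81% of all genes with lower and 5.66% with higher values.

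These counts moved with single mice. For double KO against control, the 5 genes became 3 without double KO replicate 1, 3 without control replicate 2 and 8 without double KO replicate 3. For SMRT KO against control, the 11 genes became 7 without SMRT KO replicate 1, 6 without SMRT KO replicate 3 and 5 without control replicate 3. For double KO against SMRT KO, the 2 genes became 4, 5 and 4 without SMRT KO replicates 1, 2 and 3.

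Genes whose groups did not overlap were counted as well. All 3 double KO values lay above all 3 control values for 15 genes (22.4%, against 7.73% of all genes). They lay below them for 2 genes (2.99%, against 7.25%). At a mean log2 value of 9 or more, the shares above and below were 34.5% and 3.45% of the ribosomal protein genes. They were 14.3% and 15.8% of the other genes this bright. All SMRT KO values lay above all control values for 16 genes (23.9%, against 3.8%) and below them for 1, Rpl39l (1.49%, against 4.36%). All double KO values lay above all SMRT KO values for 2 genes, Rpl22l1 and Rpl37 (2.99%, against 7.54%), and below them for 6 (8.96%, against 6.21%).

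The fits bound how large a change of the probe set values could be missed. For probe sets near background, such as that of Rpl10l at a mean of 3.41, a narrow interval does not bound the mRNA change. The 95% interval of the fold change lay within 1.5-fold either way for 66 of the 67 genes in double KO against control, 64 in SMRT KO against control and 64 in double KO against SMRT KO. The widest limits over all members were 0.607-fold to 1.48-fold in double KO against control, 0.614-fold to 1.60-fold in SMRT KO against control and 0.544-fold to 1.64-fold in double KO against SMRT KO. Because the arrays were normalized together, the values show the ribosomal protein genes relative to the other genes, and a shift shared by most genes would not appear. In whole liver, fewer cells of a type and less RNA per cell cannot be told apart.

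The 29 genes whose probe set had a mean log2 value of 9 or more were described apart. This limit was chosen after the values were seen and was reached by 43.3% of the ribosomal protein genes and 12.7% of all genes. Whether these bright probe sets also read pseudogene copies was not tested. In SMRT KO against control livers all 29 had a log2 fold change above 0, with a median of 0.138, and in double KO against control livers 27 did, with a median of 0.087. In double KO against SMRT KO livers 6 of the 29 were above 0 and the median was -0.040. The other 2797 genes this bright had medians of -0.018, -0.005 and 0.008 in these 3 comparisons. The 15 members below the median level of all genes had medians of 0.063, 0.054 and 0.001. Among the bright genes the 11 with an unadjusted p below 0.05 in SMRT KO against control were Rpl29, Rplp0, Rpl6l, Rpl32, Rpl23a, Rps4x, Rpl19, Rpl27, Rpl28, Rpl35 and Rps19.

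**Figure D1:**
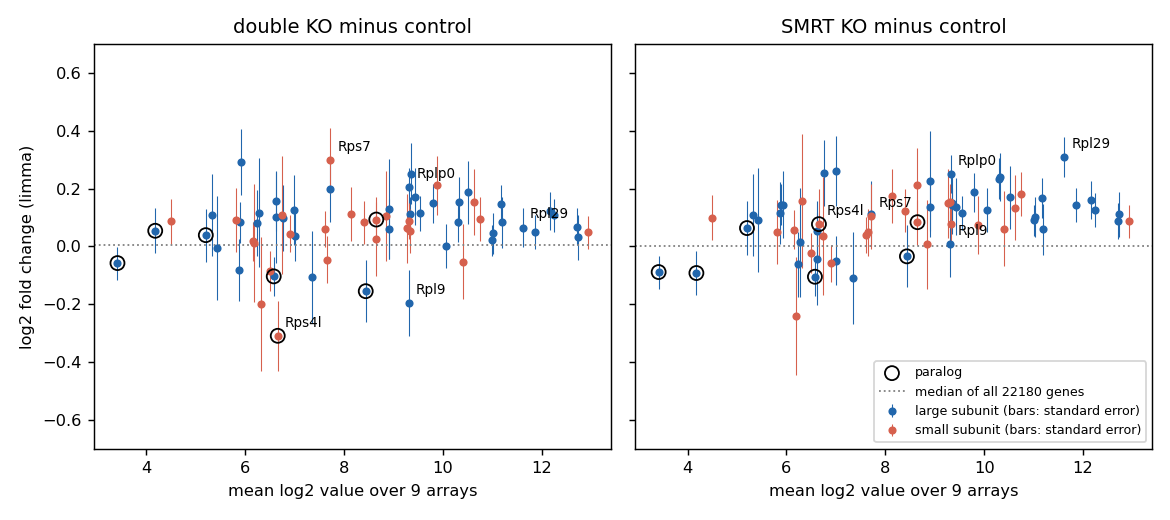
Log2 fold change (limma, bars are standard errors) of the 67 ribosomal protein genes against their mean log2 value over 9 arrays, for double KO against control (left) and SMRT KO against control (right). Blue points are large subunit genes, red points small subunit genes and circles the 7 paralogs. On the right all 29 genes at 9 or more lie above 0, and the dotted line is the median of all 22180 genes.

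The bright genes were then followed by mouse. For each array the deviation of every bright gene from its own mean over 9 arrays was taken, and the median over the 29 genes is given. It was 0.042, 0.030 and 0.001 in the double KO mice, 0.063, 0.008 and 0.125 in the SMRT KO mice, and -0.085, -0.063 and -0.095 in the control mice. All 3 controls thus lay below all 6 knockout mice, while the double KO and SMRT KO mice overlapped. The number of the 29 genes above their own mean was 21, 21 and 15 in the double KO mice, 22, 17 and 28 in the SMRT KO mice, and 2, 8 and 1 in the control mice.

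SMRT KO replicate 3 stood highest and gave the highest value of the 9 arrays for 26 of the 67 genes, while control replicate 1 gave the lowest for 17 and control replicate 3 for 14. Without SMRT KO replicate 3, the SMRT KO against control median of the bright genes was 0.096, with 27 of 29 above 0. Without that array, 11 of 29 bright genes rather than 6 were above 0 in double KO against SMRT KO. The other genes at 9 or more had array medians between -0.026 and 0.022, and the controls among them overlapped both knockout groups.

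**Figure D2:**
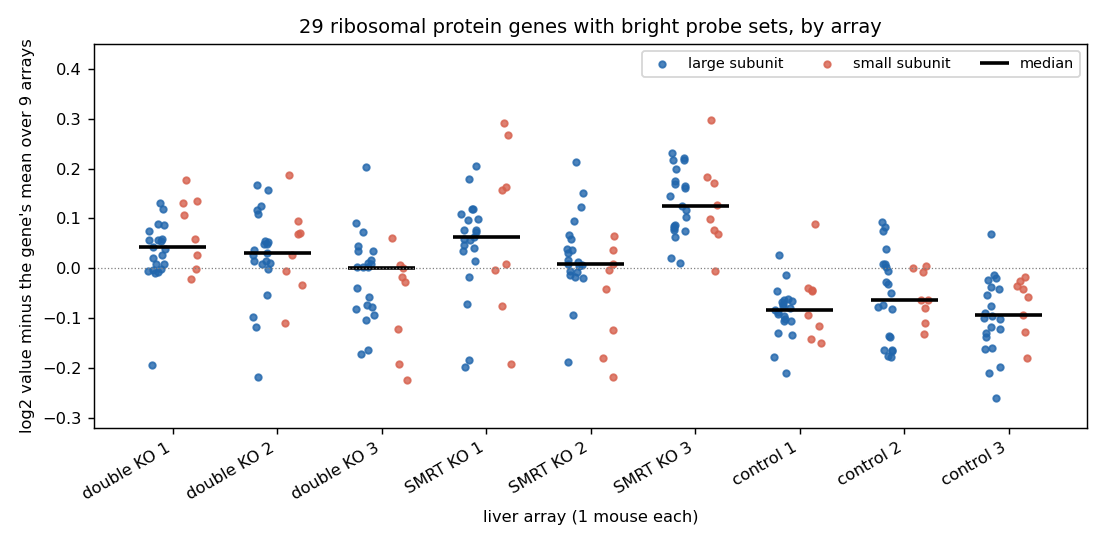
Log2 value minus the gene's own mean over 9 arrays for the 29 ribosomal protein genes with a mean of 9 or more, by mouse. Blue points are large subunit genes, red points small subunit genes and black lines the array medians, which lie below 0 in all 3 controls and highest, at 0.125, in SMRT KO replicate 3.

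Large and small subunit genes had medians of the same sign. In double KO against control livers the median log2 fold change was 0.084 over the 42 large subunit genes and 0.063 over the 25 small subunit genes, a difference of 0.02. In SMRT KO against control livers the medians were 0.116 and 0.078, a difference of 0.04, and in double KO against SMRT KO livers -0.027 and -0.037, a difference of 0.01. These differences moved with single mice. For double KO against control, leaving out control replicate 3 gave -0.0081, leaving out control replicate 1 gave 0.049 and leaving out double KO replicate 3 gave 0.048. For SMRT KO against control it was 0.014 without SMRT KO replicate 1. For double KO against SMRT KO it was -0.036, -0.013 and -0.021 without SMRT KO replicate 3, double KO replicate 1 and double KO replicate 2. They were not tested, and no difference between the subunits is drawn from them.

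The P stalk is the flexible arm of the large subunit that recruits the GTPases of translation. It is built on Rplp0, a gene widely used as a reference in quantitative PCR, with Rplp1 and Rplp2 bound to it. Rplp0 had log2 values of 9.39, 9.37 and 9.35 in the double KO mice, 9.35, 9.41 and 9.48 in the SMRT KO mice, and 9.25, 9.14 and 9.11 in the control mice. Every knockout mouse lay above every control mouse.

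The log2 fold change of Rplp0 was 0.21 in double KO against control (standard error 0.0646, limma adjusted p = 0.252, between 0.133 and 0.520 over 16 alternatives) and 0.25 in SMRT KO against control (standard error 0.0646, limma adjusted p = 0.505, between 0.486 and 0.942). Against SMRT KO, double KO gave -0.04. A second, dimmer Rplp0 probe set, with a mean of 6.39 against 9.32, gave 0.16, 0.07 and 0.09 in these comparisons. Over the 3 stalk genes the medians were 0.109 in double KO against control, 0.108 in SMRT KO against control and -0.044 in double KO against SMRT KO.

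By the probe set used, Rpl29, a large subunit protein, had its highest values in the SMRT KO mice. It had 11.61, 11.52 and 11.54 in the double KO mice, 11.79, 11.77 and 11.84 in the SMRT KO mice, and 11.60, 11.45 and 11.42 in the control mice. The SMRT KO values lay above all others, and the double KO and control values overlapped. The log2 fold change was 0.31 in SMRT KO against control, a 1.24-fold difference with an adjusted p of 0.417 by limma (between 0.323 and 0.904 over the alternatives). It was -0.24 in double KO against SMRT KO, with an adjusted p of 0.175 by limma (between 0.0890 and 0.963), and 0.07 in double KO against control. The dimmer Rpl29 probe set, at a mean of 7.97, did not follow this pattern. It gave -0.06 in SMRT KO against control, 0.20 in double KO against SMRT KO and 0.14 in double KO against control.

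Other large subunit genes with a low p in SMRT KO against control were Rpl6l and Rpl32. RefSeq lists Rpl6l, whose parent Rpl6 encodes a large subunit protein, as a pseudogene. Its probe set had a mean of 10.31, against 5.88 for that of Rpl6. Rpl6l had 10.33, 10.19 and 10.34 in the double KO mice, 10.51, 10.34 and 10.45 in the SMRT KO mice, and 10.20, 10.22 and 10.18 in the control mice. All SMRT KO values were above all control values, with a log2 fold change of 0.23 and a limma adjusted p of 0.704. Rpl32 had 10.43, 10.43 and 10.15 in the double KO mice, 10.41, 10.38 and 10.48 in the SMRT KO mice, and 10.22, 10.18 and 10.16 in the control mice. Its log2 fold change was 0.24 in SMRT KO against control, with a limma adjusted p of 0.775, and 0.15 in double KO against control, where double KO replicate 3 lay just below the controls.

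Rpl37 and Rpl10a had the lowest p among large subunit genes, after Rplp0, in double KO against control. Rpl37 had 6.32, 5.96 and 5.93 in the double KO mice, the same value of 5.92 in all 3 SMRT KO mice, and 5.92, 5.60 and 5.81 in the control mice. Identical values on 3 or more arrays occurred for 8 of the 67 genes, and for 28.9% of all genes. Its log2 fold change was 0.29 in double KO against control, with a limma adjusted p of 0.394. Double KO replicate 1 was the highest array, and without it the value was 0.17, and 0.02 in double KO against SMRT KO, where it was 0.15 over all mice. Rpl10a, at the stalk on the other side of the subunit, had 9.34, 9.51 and 9.55 in the double KO mice, 9.17, 9.36 and 9.57 in the SMRT KO mice, and 9.17, 9.17 and 9.31 in the control mice. Its log2 fold change was 0.25 in double KO against control, with a limma adjusted p of 0.431, and the SMRT KO mice spanned both other groups.

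Rpl9, a large subunit protein near the stalk, had 9.11, 9.09 and 9.32 in the double KO mice, 9.11, 9.52 and 9.51 in the SMRT KO mice, and 9.33, 9.40 and 9.38 in the control mice. All double KO values were below all control values, with a log2 fold change of -0.20 and a limma adjusted p of 0.603. The SMRT KO mice were split, with replicate 1 at the double KO level.

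Proteins around the exit of the nascent chain tunnel dock the factors that fold and sort new proteins. Of the 7 genes listed, 6 were measured. By the probe sets used, all 6 had a log2 fold change above 0 in both knockouts. Of all 67 members, 82.1% were above 0 in double KO against control and 83.6% in SMRT KO against control. The medians of the 6 were 0.136 in double KO against control, 0.156 in SMRT KO against control and -0.029 in double KO against SMRT KO. A dimmer Rpl35 probe set gave -0.20 in double KO against control and -0.04 in SMRT KO against control, and another gave 0.15 and 0.06. None of the 6 genes passed the test. Rpl23a, which lies at the docking site of the signal recognition particle, had 9.86, 9.85 and 9.80 in the double KO mice, 9.86, 9.79 and 9.98 in the SMRT KO mice, and 9.72, 9.64 and 9.71 in the control mice. Every knockout value lay above every control value. The log2 fold changes were 0.15 (limma adjusted p = 0.466) in double KO against control and 0.19 (limma adjusted p = 0.788) in SMRT KO against control. A second Rpl23a probe set held identical values and adds no measurement.

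Rpl5 and Rpl11 enter the large subunit together with a ribosomal RNA, and when unassembled they bind Mdm2, the ubiquitin ligase of p53. Rpl5 had 6.32, 6.32 and 6.31 in the double KO mice, 6.25, 5.88 and 6.39 in the SMRT KO mice, and 6.25, 6.24 and 6.21 in the control mice. Rpl11 had 5.80, 5.72 and 5.84 in the double KO mice, 5.91, 5.92 and 6.12 in the SMRT KO mice, and 5.95, 6.03 and 5.63 in the control mice. The 2 partners differed in sign. Rpl5 had log2 fold changes of 0.08 in double KO against control, -0.06 in SMRT KO against control and 0.14 in double KO against SMRT KO, and Rpl11 had -0.08, 0.12 and -0.20. The double KO values of Rpl11 were below all SMRT KO values, with a limma adjusted p of 0.598, and the difference was -0.13 without SMRT KO replicate 3. Of 7 p53 target and regulator genes, 6 were measured and 0 were called, with medians of 0.043 in double KO against control, -0.003 in SMRT KO against control and 0.007 in double KO against SMRT KO.

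In the small subunit, Rps6 is the substrate of the kinases downstream of mTOR. It was also one of the 3 genes with the smallest spread between mice. It had 12.91, 12.95 and 12.93 in the double KO mice, 12.94, 12.96 and 13.00 in the SMRT KO mice, and 12.83, 12.93 and 12.89 in the control mice. The SMRT KO values lay above the control values, with a log2 fold change of 0.09 and a 95% interval of -0.04 to 0.22. In double KO against control it was 0.05, with an interval of -0.08 to 0.18.

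Rps7, which is needed to mature the small subunit RNA, had 8.16, 7.74 and 7.76 in the double KO mice, 7.75, 7.75 and 7.57 in the SMRT KO mice, and 7.56, 7.57 and 7.63 in the control mice. All double KO values were above all control values, and replicate 1 was the highest. The log2 fold change was 0.30 in double KO against control, with a limma adjusted p of 0.366 (between 0.249 and 0.618 over the alternatives), and 0.16 without double KO replicate 1. Rpsa, the protein also known as a laminin receptor, had 10.05, 10.06 and 9.85 in the double KO mice, 9.68, 9.83 and 10.04 in the SMRT KO mice, and 9.72, 9.86 and 9.74 in the control mice. Its log2 fold change was 0.21 in double KO against control, with a limma adjusted p of 0.504, and the groups overlapped.

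Rps4x, the X-linked small subunit gene, had 10.80, 10.81 and 10.62 in the double KO mice, 10.90, 10.75 and 10.84 in the SMRT KO mice, and 10.60, 10.63 and 10.72 in the control mice. Its SMRT KO values lay above all control values, with a log2 fold change of 0.18 and a limma adjusted p of 0.829. Rps18 had log2 fold changes of -0.09 in double KO against control, which became -0.02 without control replicate 1 and -0.13 without control replicate 2, and of -0.06 in double KO against SMRT KO. Its other 2 probe sets gave 0.03 and 0.05 in double KO against control and 0.01 and 0.04 in double KO against SMRT KO. Rps23, which lies at the decoding centre, had 0.04 in double KO against control, -0.06 in SMRT KO against control and 0.10 in double KO against SMRT KO. The second of these was -0.03 without SMRT KO replicate 3 and -0.11 without SMRT KO replicate 1, and the third was 0.16 without SMRT KO replicate 1.

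The small subunit head, where mRNA and tRNA are handled, had 11 of 13 listed genes measured, with medians of 0.053 in double KO against control, 0.062 in SMRT KO against control and -0.064 in double KO against SMRT KO. Genes that are mutated in human Diamond-Blackfan anaemia, a failure of red cell production, had 8 of 10 measured, with medians of 0.0999, 0.110 and 0.020. None of these genes was called in any comparison.

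**Figure D3:**
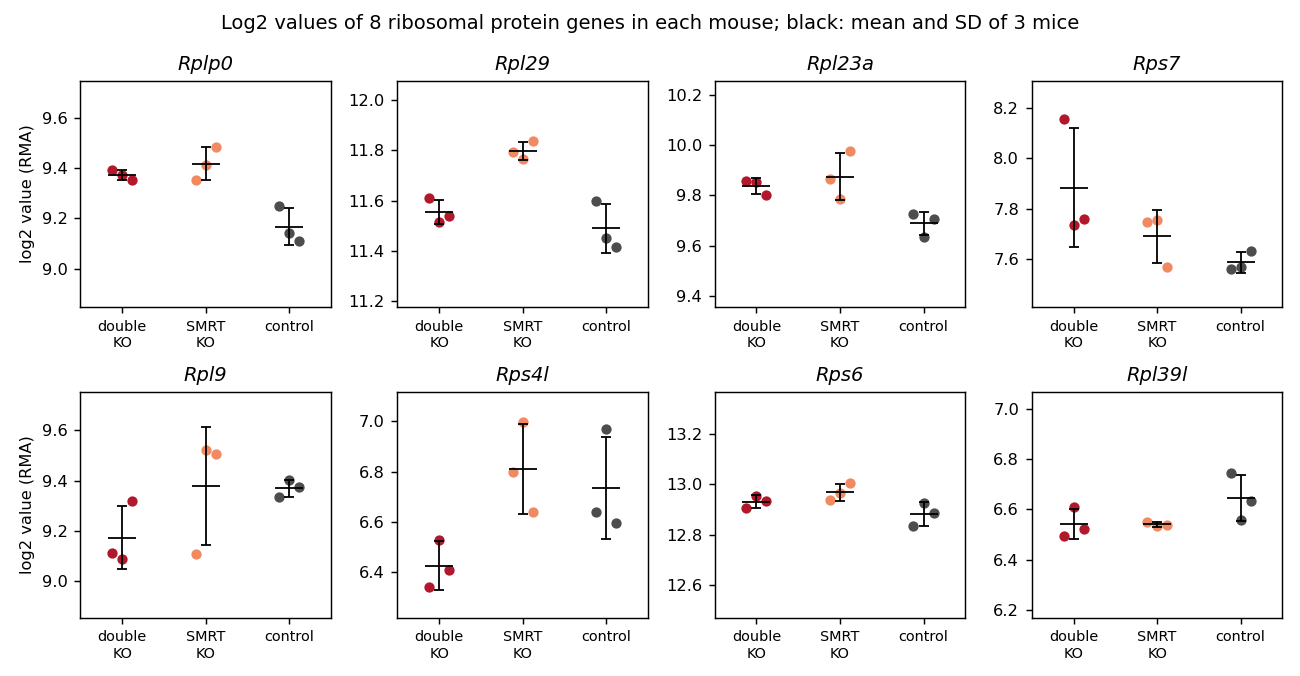
Log2 values of 8 ribosomal protein genes in each mouse, with the mean and SD of 3 mice in black. All panels span the same range of log2 units, so that the separation of Rplp0 and Rpl23a from control, the high SMRT KO values of Rpl29, and the single high double KO mouse of Rps7, at 8.16, can be compared.

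Paralogs are second copies that encode a variant of a ribosomal protein, often with restricted expression. The 7 measured had medians of -0.058 in double KO against control, -0.034 in SMRT KO against control and 0.001 in double KO against SMRT KO, and 3, 3 and 4 of them were above 0. The other 60 genes had medians of 0.086, 0.114 and -0.037. These 60 include Rpl6l and Rpl32l, which also carry the symbol of a copy. With both counted as copies, all 9 symbols ending in l or l1 had medians of -0.006, 0.063 and -0.024, and the remaining 58 genes had 0.087, 0.114 and -0.033. The sign of the median in both comparisons with SMRT KO mice thus depends on which genes are counted as copies. Rps4l, a copy of Rps4x that RefSeq lists as a transcribed pseudogene, had 6.34, 6.53 and 6.41 in the double KO mice, 6.80, 7.00 and 6.64 in the SMRT KO mice, and 6.64, 6.97 and 6.60 in the control mice. All double KO values were below all other values. The log2 fold change was -0.31 in double KO against control (limma adjusted p = 0.385, between 0.176 and 0.649 over the alternatives), and -0.19 without control replicate 2. In double KO against SMRT KO it was -0.39 (limma adjusted p = 0.243, between 0.0850 and 0.486). It was the only member with an unadjusted p below 0.05 and a lower value against control, and its parent Rps4x had 0.10 in double KO against control.

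Rpl39l, known from mouse male germ cells, had 6.49, 6.61 and 6.52 in the double KO mice, 6.55, 6.53 and 6.54 in the SMRT KO mice, and 6.74, 6.56 and 6.63 in the control mice. The SMRT KO values were below all control values, with a log2 fold change of -0.10 and a limma adjusted p of 0.906, and -0.06 without control replicate 1. Its parent Rpl39 had 0.26 over all mice. Rps27l, induced by p53 in human cells, had 0.09 in double KO against control and 0.08 in SMRT KO against control, and its parent Rps27 had 0.11 and 0.04. Rpl7l1 had -0.15 in double KO against control, which became -0.06 without control replicate 2 and -0.09 without double KO replicate 2, and its parent Rpl7 had 0.17. Rpl22l1, which Rpl22 holds down in mouse cells, had 0.05 in double KO against control, -0.09 in SMRT KO against control and 0.15 in double KO against SMRT KO, and Rpl22 had 0.04, -0.05 and 0.08. For Rpl22l1, SMRT KO against control gave -0.04 without control replicate 2, and double KO against SMRT KO gave 0.0952 without double KO replicate 3.

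Rpl3l, known from mouse heart and skeletal muscle, had 0.04 in double KO against control and 0.06 in SMRT KO against control, with 0.13 and 0.22 for Rpl3. Rpl10l, known from the mouse testis, had the dimmest probe set, at a mean of 3.41. The array medians of 1394 olfactory and vomeronasal receptor genes, which liver is not known to express, were 3.73 to 4.13. Rpl22l1 at 4.18 and Rps29 at 4.50 were just above that range, so small differences of these 3 genes describe probe sets near background.

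The spread between mice limited what single genes could show. The median within-group SD was 0.108 over the 67 genes, 0.0722 over the 29 bright ones and 0.149 over the 15 below the median level of all genes, against 0.117 over all genes. The widest were Rps15, Rps27, Rps16, Rpl17 and Rpl32l. Rps15 had 6.24, 6.52 and 5.66 in the double KO mice, 6.35, 6.61 and 6.52 in the SMRT KO mice, and 5.94, 6.70 and 6.36 in the control mice. These ranges covered each other, and the 95% interval of its log2 fold change in double KO against control was -0.72 to 0.32. The narrowest were Rpl7a, Rpl10l and Rps6. Rpl7a had 10.99, 11.00 and 10.96 in the double KO mice, 11.06, 11.04 and 11.06 in the SMRT KO mice, and 10.95, 10.97 and 10.96 in the control mice. The SMRT KO values were above all others, yet the log2 fold change was 0.09 against control, with a limma adjusted p of 0.906.

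Other probe sets of the same genes were compared with those used. The 67 genes had 108 probe sets with a single symbol, and 25 genes had more than 1. For 19 of the 25, the probe sets of a gene differed by more than 2 in mean log2 value. Rps26 had one at 10.63 and another at 3.59, which lies below the range of the receptor genes. Rpl41 had 5, of which 4 lay between 12.36 and 12.72 and 1 at 6.38. The sign of the log2 fold change differed between probe sets of a gene for 11 genes in double KO against control, 11 in SMRT KO against control and 12 in double KO against SMRT KO. A further 57 probe sets that carry a ribosomal protein symbol together with others had medians of 0.053, 0.073 and -0.043 in these comparisons, with 38, 42 and 22 of the 57 above 0 and 0 called.

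**Figure D4:**
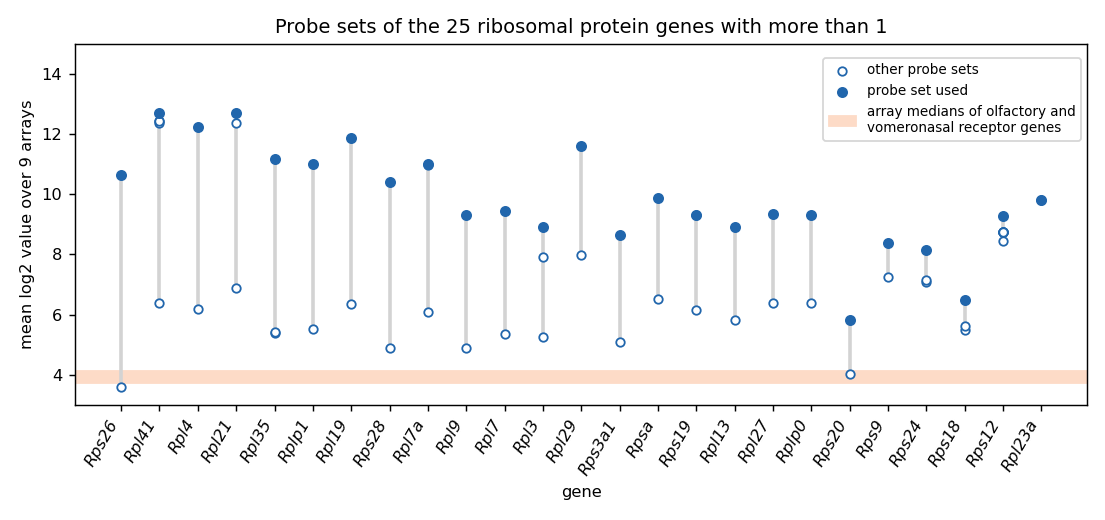
Mean log2 value over 9 arrays of every single-symbol probe set of the 25 ribosomal protein genes with more than 1. Filled points are the probe sets used and open points the others, down to 3.59 for Rps26. The band, from 3.73 to 4.13, marks the array medians of the receptor genes.

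The genes were also divided by their start sequences. The 23 genes with CCGGAAG in the 300 bases had medians of 0.083 in double KO against control, 0.108 in SMRT KO against control and 0.001 in double KO against SMRT KO. The 29 genes with an entry and without it had 0.063, 0.091 and -0.040. Rps7, with the motif in its printed window, had double KO values above all control values. Rplp0 did too, but its printed window, which lacks the motif, is only a part of the 300 bases. Whether Rplp0 holds CCGGAAG elsewhere in the 300 bases is not given here. These genes therefore do not compare members with and without the motif.

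Genes that work with the ribosome were set beside its proteins. The mitochondrial ribosomal proteins, which form the separate ribosome of the mitochondrion, had 71 genes measured and 0 called. Their medians were 0.058 in double KO against control, 0.015 in SMRT KO against control and 0.044 in double KO against SMRT KO. Mrpl16 had the lowest p in double KO against control. It had 10.15, 10.12 and 10.25 in the double KO mice, 10.01, 10.01 and 9.92 in the SMRT KO mice, and 9.86, 10.04 and 9.97 in the control mice, with a log2 fold change of 0.22 and a limma adjusted p of 0.261 against control.

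Translation factors and other genes whose mRNAs share the oligopyrimidine start had 18 of 23 measured and 0 called. Their medians were 0.055, 0.051 and 0.005 in the same order of comparisons. This list includes Fau, itself a gene of a small subunit protein, whose symbol the selection did not match. Fau had 0.06, 0.11 and -0.05. Eef1b2, an exchange factor of elongation, had the lowest p in double KO against control, with a log2 fold change of 0.18 and a limma adjusted p of 0.452. Ribosome biogenesis factors had 28 of 29 measured and 0 called, with medians of 0.044, 0.012 and 0.076. Npm1 was counted in both this list and that of the translation factors. Nop10, a small nucleolar protein, had 10.65, 10.57 and 10.47 in the double KO mice, 10.47, 10.47 and 10.49 in the SMRT KO mice, and 10.33, 10.39 and 10.35 in the control mice. Its log2 fold change was 0.21 in double KO against control, with a limma adjusted p of 0.237.

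Among 18 of 19 measured regulators of ribosome synthesis, 0 were called, and the medians were -0.012, -0.021 and 0.043. Myc, a transcription factor that drives ribosome synthesis, had 7.36, 7.90 and 7.93 in the double KO mice, 7.35, 7.02 and 7.12 in the SMRT KO mice, and 6.77, 7.13 and 7.19 in the control mice. All double KO values were above all control values, with a log2 fold change of 0.70 and a limma adjusted p of 0.127. Akt1, a kinase upstream of mTOR, had 9.35, 9.33 and 9.22 in the double KO mice, 8.77, 9.07 and 8.70 in the SMRT KO mice, and 9.02, 8.98 and 9.11 in the control mice. Its log2 fold change was 0.45 in double KO against SMRT KO, with a limma adjusted p of 0.0722. Ddit4, an inhibitor of mTOR, had -0.47 in double KO against control, with a limma adjusted p of 0.360.

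**Figure D5:**
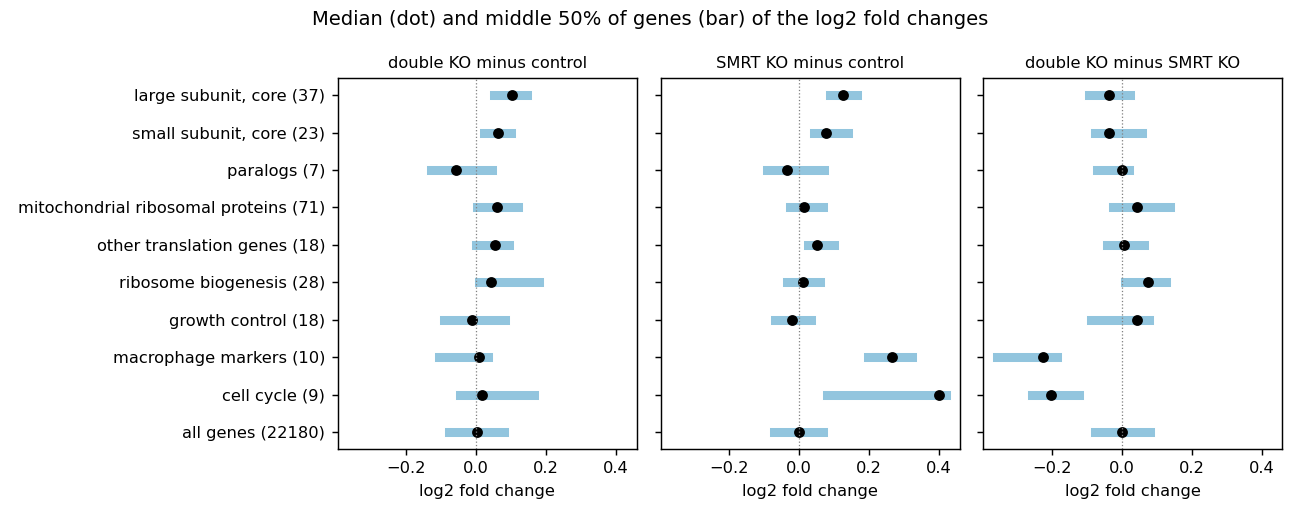
Median log2 fold change (dot) and middle 50% of genes (bar) for the ribosomal protein genes, split into large subunit, small subunit and paralogs, and for companion lists, with the number of genes in parentheses. Both core groups lie to the right of 0 in the left and middle panels, and the macrophage and cell cycle lists lie to the right of 0 in the middle panel, at 0.27 and 0.40, and to the left of 0 in the right panel.

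Of the cell type lists with more than 2 genes, the macrophage list alone had every gene on 1 side of 0 in SMRT KO against control. All 10 macrophage markers had a log2 fold change above 0 in SMRT KO against control, with a median of 0.266. Of these, 5 (50%) had an unadjusted p below 0.05, against 2.66% of all genes with higher values. All 10 were below 0 in double KO against SMRT KO, with a median of -0.227. In double KO against control the median was 0.008. By array, the median log2 value of the list was 8.51 to 8.64 in the double KO mice, 8.65 to 9.09 in the SMRT KO mice, and 8.46 to 8.74 in the control mice. The order of mice was not that of the ribosomal protein genes throughout. As deviations from each gene's own mean, the macrophage list had its highest array median, 0.290, in SMRT KO replicate 3, which was also the highest for the bright ribosomal protein genes, at 0.125. SMRT KO replicate 2 came next for macrophage markers, at 0.207, but was the lowest SMRT KO mouse for the bright genes, at 0.008. Control replicate 1 was the highest control for macrophage markers, at 0.075, and had -0.085 for the bright genes. Cd5l, a marker of liver macrophages, had a log2 fold change of 0.33 in SMRT KO against control with a limma adjusted p of 0.436, the lowest of the list.

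All 9 measured cell cycle genes were above 0 in SMRT KO against control, with a median of 0.401, and 8 of 9 were below 0 in double KO against SMRT KO, with a median of -0.203. Their array medians were 6.78 to 6.89 in the double KO mice, 6.79 to 7.46 in the SMRT KO mice, and 6.61 to 6.77 in the control mice, and SMRT KO replicate 3 was the lowest SMRT KO mouse here. No macrophage or cell cycle gene was called.

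The other cell type lists had medians between -0.025 and 0.112 in SMRT KO against control. These were -0.010 for hepatocytes, -0.025 for stellate cells, 0.022 for lymphocytes, 0.041 for neutrophils, 0.067 for cholangiocytes, 0.083 for endothelium and 0.112 for the 2 erythroid genes. Of the 8 hepatocyte markers, 7 were below 0 in double KO against control, with a median of -0.186. Lower values at an unadjusted p below 0.05 occurred for 4 (50%), against 5.43% of all genes and 10.8% of the other genes at 9 or more. All double KO values lay below all control values for 4 (50%), against 7.25% and 15.8%. In double KO against SMRT KO, 7 of the 8 markers were below 0, with a median of -0.129. Their array medians were 12.8 to 12.9 in the double KO mice, 12.9 to 13.1 in the SMRT KO mice, and 12.96 to 13.01 in the control mice. Serpina1a, a hepatocyte product, was the one called, and fell in double KO against control with a log2 fold change of -0.47 and an adjusted p of 0.0251 by limma.

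Of the 8 lymphocyte markers, 6 were above 0 in double KO against control, with a median of 0.060. Ighm, the immunoglobulin heavy chain of B cells, rose in double KO livers, with a log2 fold change of 1.79 against control and an adjusted p of 0.0182 by limma, and of 2.07 against SMRT KO, with an adjusted p of 0.00696 by limma. The other B cell markers were not called, with -0.11 for Cd79a, 0.03 for Ms4a1 and 0.17 for Cd79b against control. Of the 7 stellate cell markers, 3 were above 0 in double KO against control, with a median of -0.188, and the median was -0.083 in double KO against SMRT KO. Lrat, the enzyme that esterifies retinol for storage, fell, with a log2 fold change of -1.80 against control and an adjusted p of 0.000397 by limma. Col3a1, Col1a1 and Pdgfrb were not called and were the 3 genes of this list above 0, at 0.31, 0.28 and 0.09. The 4 genes below 0 were Lrat, Des, Reln and Acta2, of which Lrat alone was called. Lower values at an unadjusted p below 0.05 occurred for 2 of the 7 markers (28.6%), against 5.43% of all genes. The part of these cell types in the ribosomal protein values was not tested.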

How the data were processed

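Liver RNA of 9 mice was measured on 1 array each. The deposited table holds log2 values for 41345 probe sets, deposited after RMA by the authors, per the submitters' processing notes. This method corrects background, brings all arrays to a common distribution and combines the probes of each set. The sources used here give no version of it. Arrays carry no read depth, so their number limits the precision. Columns were assigned to samples by their names, and samples to groups by the labels.

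Probe sets with exactly 1 symbol in the platform annotation (23521) were kept, with the highest mean over 9 arrays per gene. No filter on level was used. Limma 3.58.1 in R 4.3.3 was fitted in a single model over 22180 genes and 9 arrays, two-sided, with 6 residual and 3.36 prior degrees of freedom and no block. P-values were adjusted by Benjamini-Hochberg within each comparison, and a gene was called below 0.05. Adjusted p-values come from this model, and the ranges given beside them from the alternative fits. An exact permutation test of 3 mice against 3 reaches p = 0.1 at the lowest and was not run. Where the labels call mice replicates, p-values measure the spread between these mice. The fit was tested on simulated data with known changes.

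The members, the companion lists, the cell type markers, the motifs and the tests were chosen with earlier results of these data known. Named genes are the 5 members with the lowest p in each direction of each comparison, the 3 brightest and 3 dimmest, the 5 with the widest and 3 with the narrowest spread, the paralogs with their parents, and Rps6, Rpl5, Rpl11 and Rplp0. From a list they are the called genes and up to 3 with the lowest p. The other genes whose groups did not overlap, or with an unadjusted p below 0.05, were named after their values were seen. Start regions came from RefSeq (GRCm38.p6). Alternatives were another normalization, a filter on level, the mean of all probe sets, 2 groups per fit, other moderation, array weights, a replicate block, the set without paralogs, another choice of paralogs and leaving out each mouse.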

Additional observations from a re-analysis of the deposited data

How the results depend on the processing

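The count of called ribosomal protein genes was 0 in all 3 comparisons under every alternative run. The median log2 fold change stayed between 0.063 and 0.089 in double KO against control, between 0.083 and 0.114 in SMRT KO against control and between -0.046 and -0.011 in double KO against SMRT KO when each mouse was left out. For the 29 bright genes these ranges were 0.078 to 0.111, 0.096 to 0.155 and -0.076 to -0.017. The large minus small subunit difference ranged from -0.0081 to 0.049, from 0.014 to 0.056 and from -0.036 to 0.016 in the same comparisons. It was 0.018 in SMRT KO against control with the mean of all probe sets of a gene. Settings added after seeing the data took the bright genes alone, which gave 0.138 in SMRT KO against control, and left out every symbol ending in l or l1, which moved the subunit difference in double KO against control to 0.044. Deviations of same-numbered mice correlated between -0.085 and 0.117, and those of differently numbered mice of different groups between -0.154 and 0.165. These values show no deviation shared by number, but cannot tell whether mice were paired by other means. With the replicate block the medians were 0.083, 0.104 and -0.030, with 0 genes called. At an unadjusted p below 0.05, the 5 genes of double KO against control became 8 with only 2 groups in the fit and 11 with array weights. The 11 of SMRT KO against control became 5 with the replicate block and 5 with the mean of all probe sets. The 2 of double KO against SMRT KO became 1 with the mean of all probe sets and 1 without the paralogs. Leaving out mice gave 3 to 8, 5 to 12 and 2 to 5. The cause of these shifts was not tested.

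The median standard error of a member's log2 fold change was 0.0878, about the size of the set medians, and the median 95% interval reached 1.15-fold either way. The probe sets of Rpl10l, Rpl22l1 and Rps29 lie near background. The values do not show ribosomal protein abundance, translation or the number of ribosomes.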
